A study of Mus musculus with 9 samples.

Results

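Transcripts of 7 caveola genes were measured in mouse retinal cells: the caveolins Cav1 and Cav2, the cavins Cavin1, Cavin2 and Cavin3, and the membrane-bending proteins Ehd2 and Pacsin2. They were chosen by symbol, as genes that build caveolae, with no cut on their values but with earlier results of these data known. All 7 were listed both among the 16367 genes of the table for sorted cells and among the 17035 genes of the table for cultured cells. The data came from 9 libraries in 3 groups of 3. All animals were of WT genotype. Sham mice received a corneal incision without oil, and mice with ocular hypertension (OHT) received 1.2 µL of silicone oil in the anterior chambers of both eyes. In both groups neural retinas were pooled by 4, dissociated with papain and held on a magnetic column by an antibody to GLAST (ACSA-1), a glutamate transporter of Müller glia that astrocytes also carry. The sources used here do not give the age or sex of these animals, or the time after injection. The third group was untreated primary Müller glia cultures from C57BL/6J pups 8 to 10 days old, grown with serum on gelatin and passaged. The labels do not say that replicates came from separate litters or cultures, so p-values measure only the spread between these samples, which may be technical.

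Caveolae are small flask-shaped pits of the plasma membrane. Caveolin-1 and caveolin-2 form oligomers in the membrane, cavin-1 assembles with the other cavins into a coat around the pit, EHD2 forms a ring at its neck, and pacsin-2 bends membrane through its F-BAR domain. Caveolae flatten when the membrane is stretched and so buffer its tension, and caveolin-1 has been described as a partner of the stretch- and swelling-gated channel TRPV4. In the retina, caveolin-1 is abundant in Müller glia, endothelial cells and pericytes. A stable caveola needs both caveolin-1 and cavin-1, whereas caveolin-2 and pacsin-2 also occur without caveolae.

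The start regions of 4 of these genes are shown because their levels differed in contrasting ways: Cav1 and Cav2 are neighbours on chromosome 6 and stood 1.24 to 4.02 times apart per kb of transcript in sorted cells but 30.4 to 32.3 times apart in culture, while Cavin1 and Cavin2 were both much higher in culture. Each line gives the 250 bases before the first RefSeq start site of the gene, 5′ to 3′ along its own strand (assembly GRCm38.p6). The intervals are chr6:17306085-17306334 (plus strand) for Cav1, chr6:17280935-17281184 (plus strand) for Cav2, chr11:100970618-100970867 (minus strand) for Cavin1 and chr1:51288876-51289125 (plus strand) for Cavin2. Capitals mark matches to 3 short motifs searched on both strands: the GC box GGGCGG (reverse CCGCCC), the TATA box TATAAA (reverse TTTATA) and the TEAD core GGAATG (reverse CATTCC).
Cav1: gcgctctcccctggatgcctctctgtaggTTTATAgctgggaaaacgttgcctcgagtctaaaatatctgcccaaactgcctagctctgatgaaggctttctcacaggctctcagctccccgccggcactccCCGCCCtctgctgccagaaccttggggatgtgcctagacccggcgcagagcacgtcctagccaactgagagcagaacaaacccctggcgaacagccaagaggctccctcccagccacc
Cav2: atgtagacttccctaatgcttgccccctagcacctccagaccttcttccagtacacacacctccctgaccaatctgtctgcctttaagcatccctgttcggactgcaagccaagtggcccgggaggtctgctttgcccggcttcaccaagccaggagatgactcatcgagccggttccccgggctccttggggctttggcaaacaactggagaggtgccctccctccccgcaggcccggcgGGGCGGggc
Cavin1: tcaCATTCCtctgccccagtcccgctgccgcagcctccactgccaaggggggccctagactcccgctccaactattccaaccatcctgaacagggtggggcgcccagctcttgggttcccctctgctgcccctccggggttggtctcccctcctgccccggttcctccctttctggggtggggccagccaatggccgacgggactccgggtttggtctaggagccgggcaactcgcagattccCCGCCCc
Cavin2: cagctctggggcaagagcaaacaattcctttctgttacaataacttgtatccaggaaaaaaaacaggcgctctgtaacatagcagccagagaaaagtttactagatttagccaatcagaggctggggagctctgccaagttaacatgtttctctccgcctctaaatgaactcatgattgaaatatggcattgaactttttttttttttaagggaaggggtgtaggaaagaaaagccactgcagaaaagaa
The Cav1 window held a TATA box on the reverse strand from base -221 and a GC box on the reverse strand from base -118, counted from the start site. The Cav2 window held a GC box from base -9. In the Cavin1 window a GC box on the reverse strand began at base -7 and a TEAD core on the reverse strand at base -247. None of the 3 motifs was found in the Cavin2 window, whose GC content was 40.4%, against 59.6% for Cav1, 62.0% for Cav2 and 67.6% for Cavin1. The median over all 32851 RefSeq mouse promoter windows of that length was 52.4%. A GC box stood in 32.7% of those windows, a TATA box in 12.4% and a TEAD core in 12.6%, so each match is a description of the sequence only. RefSeq windows were found for 6 of the 7 genes, and those of Ehd2 and Pacsin2 at their first start sites each held 1 GC box.

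Depth was 37.8 to 44.5 M (1e6) recovered reads in the sham libraries, 47.1 to 53.6 M in the OHT libraries and 66.3 to 76.7 M in the cultures, so that 1 read is 0.0130 to 0.0264 reads per 1e6 (ppm) of a library's total. Levels are given as the authors' normalised read counts within the sorted cells. Across the separately normalised tables they are given in ppm, with no test. Marker genes were read beside the caveola genes. In the sorted libraries 12 microglia and macrophage markers summed to 34848 to 62867 ppm, and 10 Müller glia markers to 1708 to 8149 ppm with none of the 10 at 0. In the cultures the Müller glia markers summed to only 230 to 393 ppm and 12 mural and fibroblast markers to 15044 to 17792 ppm, led by Acta2 at 8134 to 13250 ppm and Col1a1 at 4121 to 6521 ppm. Rlbp1, the retinaldehyde-binding protein of Müller glia, was at 389 to 2090 ppm in sorted cells and at 1.60 to 2.84 ppm in the cultures. Most other genes of the mural and fibroblast list were also higher in the cultures. Pdgfrb was at 198 to 241 ppm in the cultures and 5.82 to 13.2 ppm in sham. Cspg4 was at 56.8 to 103 ppm against at most 3.62 ppm, and Myh11 at 61.3 to 113 ppm against at most 10.3 ppm. Dcn was at 40.0 to 50.6 ppm against at most 0.652 ppm. Notch3, Tagln and Lum were higher too, but at no more than 7.93 ppm. Rgs5, Kcnj8 and Abcc9 went the other way. Rgs5 was at 2.58 to 3.44 ppm against 102 to 226 ppm in sham. Kcnj8 reached at most 0.0793 ppm and Abcc9 at most 0.0452 ppm in the cultures. The cultures were thus low in the Müller glia markers of their label, no other identity was settled by these lists, and the sorted fraction was mixed. In bulk libraries such as these, fewer cells of a type and less RNA per cell cannot be told apart.

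Between sham and OHT no caveola gene passed the adjusted threshold. Of the 7, 6 had a lower fitted mean in OHT and 1, Cavin1, a higher one, against 54.8% of all genes tested with a difference below 0. The median difference of the 7 was -1.02 on the log2 scale, against -0.12 over all genes. Cav2, Cavin2 and Ehd2 were lower at an unadjusted p under 0.05, a rule that 6.30% of all genes met in that direction. After Benjamini-Hochberg adjustment limma called 0 of 14403 genes (0%), with 1680 at an unadjusted p under 0.05. edgeR also called 0, and DESeq2 called 250 (1.74%), none of them among the 7. The 3 genes at an unadjusted p under 0.05 became 0 without sham replicate 2, 1 without sham replicate 1 and 1 without OHT replicate 3.

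Cav1, the structural protein of the caveolar coat, was at 3393, 7547 and 3963 normalised counts in sham replicates 1, 2 and 3, and at 4001, 2071 and 4459 in OHT. Sham replicate 2 was the highest library and OHT replicate 2 the lowest, and the other 4 lay close together between 3393 and 4459. OHT minus sham was -0.49 on the log2(count + 1) scale (SE 0.42, 95% interval -1.41 to 0.44; limma adjusted p = 0.637; lower in 5 of 9 pairs of an OHT and a sham library). The interval holds both a decrease by more than a log2 unit and a small increase.

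Cav2, the partner of caveolin-1 in mixed oligomers, was at 2715, 4666 and 2713 normalised counts in sham and at 2233, 1662 and 1105 in OHT. All OHT libraries lay below all sham libraries, which 9.18% of all genes tested showed. The difference was -1.02 (SE 0.40, 95% interval -1.91 to -0.14; limma unadjusted p = 0.0275, adjusted p = 0.385). An exact two-sided permutation test gave p = 0.1, the smallest that 3 against 3 can reach. In ppm the groups were also apart, at 69.5, 119 and 63.7 in sham and 33.9, 37.7 and 29.3 in OHT.

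Among the cavins, Cavin1, the coat protein needed for caveolae, was at 364, 303 and 416 normalised counts in sham and at 1217, 131 and 501 in OHT. The sham libraries were close together, whereas OHT held both the highest and the lowest of the 6 libraries. OHT minus sham was 0.27 (SE 0.77, 95% interval -1.43 to 1.96; limma adjusted p = 0.893), and it turned to -0.48 without OHT replicate 1 and was 1.12 without OHT replicate 2. No direction can be given for Cavin1.

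Cavin2, also called SDPR, which helps to shape the caveolar membrane and is abundant in endothelium, was at 461, 326 and 171 normalised counts in sham and at 34.5, 133 and 49.7 in OHT. The groups did not overlap, and OHT replicate 1 rested on only 25 reads. The difference was -2.25 (SE 0.87, 95% interval -4.15 to -0.35; limma unadjusted p = 0.0244, adjusted p = 0.377; exact permutation p = 0.1). It stayed below 0 in all 17 alternative settings, between -2.80 and -1.50, and its adjusted p stayed between 0.158 and 0.906.

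Cavin3, a cavin that also binds protein kinase C delta, was at 166, 643 and 575 normalised counts in sham and at 540, 186 and 0 in OHT. The count of 0 in OHT replicate 3 allows up to 3 reads, or 2.40 normalised counts, and covers counting error only. OHT replicate 1 lay within the sham range. The difference of -3.09 (SE 1.87, 95% interval -7.18 to 1.00; limma adjusted p = 0.520) rested on that library and was -0.32 without OHT replicate 3. Its size also depends on how the 0 is handled: it was -3.42 with a pseudocount of 0.5, -1.99 with 10, -1.04 with edgeR and -0.93 with DESeq2.

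At the neck of the pit, Ehd2, the ATPase that holds caveolae at the surface, was at 529, 296 and 398 normalised counts in sham and at 26.3, 318 and 74.5 in OHT. OHT replicates 1 and 3 lay below all sham libraries and OHT replicate 2 within the sham range, with 19 reads behind the lowest value. The difference was -2.19 (SE 0.93, 95% interval -4.23 to -0.15; limma unadjusted p = 0.0374, adjusted p = 0.405), -1.36 without OHT replicate 1 and -3.13 without OHT replicate 2. Pacsin2, the F-BAR protein, was at 5618, 6708 and 6415 normalised counts in sham and at 3352, 6175 and 3415 in OHT. Again OHT replicates 1 and 3 were low and OHT replicate 2 was level with sham. Its difference was -0.59 (SE 0.35, 95% interval -1.35 to 0.17; limma adjusted p = 0.510). In ppm the groups of Ehd2 and of Pacsin2 were apart, with Ehd2 at no less than 7.53 ppm in sham and no more than 7.20 ppm in OHT, so their overlap depends on the scaling. By ppm 4 of the 7 genes did not overlap and were lower in OHT, against 11.4% of all genes tested. None was higher without overlap, which 5.44% of all genes were.

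**Figure D1:**
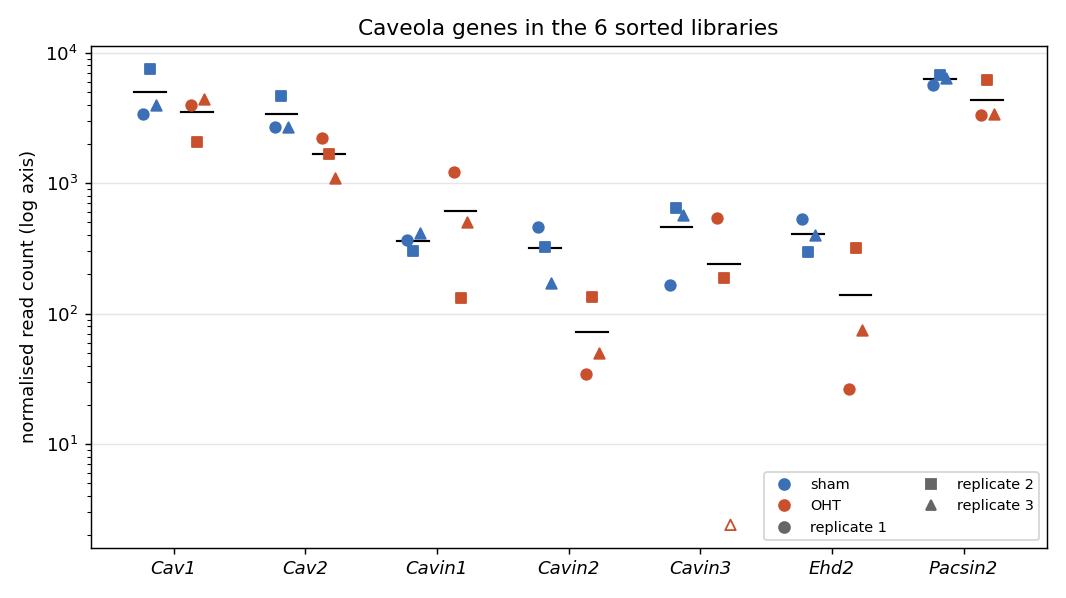
Normalised read counts (log axis) of the 7 caveola genes in the 3 sham and 3 OHT libraries, with the symbol showing the replicate, a bar at the group mean and an open symbol at the 3-read limit for the Cavin3 value of 0. Cav2 and Cavin2 are the genes whose groups do not overlap, and Cavin1 spreads from 131 to 1217 in OHT.

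**Figure D2:**
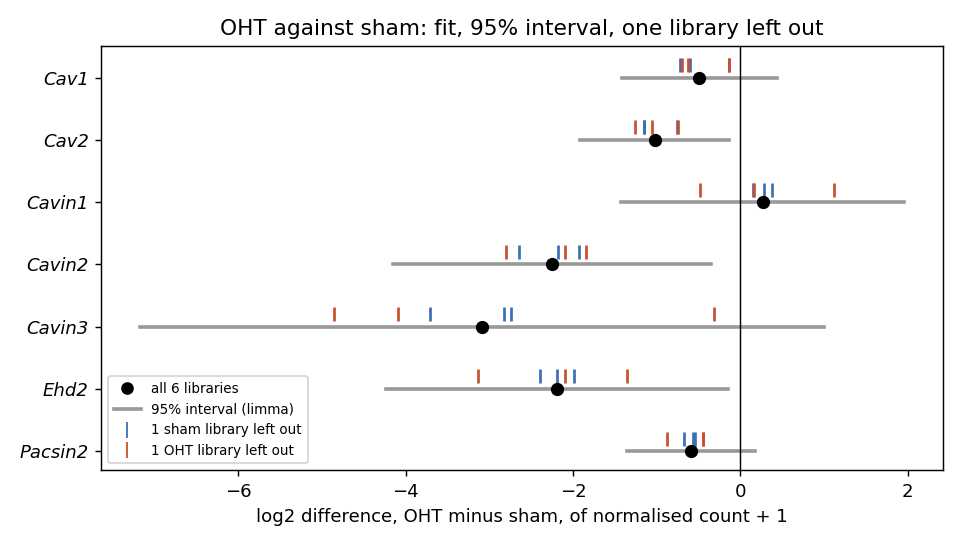
Log2 difference of OHT minus sham for each caveola gene, with the limma estimate (dot), its 95% interval (line) and the estimate with 1 library left out (ticks, coloured by the group of that library). The Cavin1 ticks lie on both sides of 0, and the Cavin3 tick without OHT replicate 3 stands at -0.32, away from the others.

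The OHT libraries were ordered differently from gene to gene. Cavin2, Ehd2 and Pacsin2 ranked OHT replicate 2 highest and OHT replicate 1 lowest of the OHT libraries, whereas Cavin1 ranked OHT replicate 1 highest and OHT replicate 2 lowest. Over the 6 sorted libraries Pearson's r of log2(count + 1) was 0.91 for Cavin2 with Ehd2, 0.91 for Ehd2 with Pacsin2, 0.85 for Cavin2 with Pacsin2, -0.75 for Cavin1 with Ehd2 and 0.39 for Cav1 with Cavin1. These are descriptions of 6 libraries that share their scaling and cell mixture. The rank-based rho for Ehd2 with Pacsin2 was only 0.49.

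The lower caveola values in OHT stood beside lower marker sums. The 12 endothelial markers summed to 243 to 531 ppm in sham and 119 to 213 ppm in OHT, with all 12 below 0 in the fit and Tie1 at 0 in sham replicate 1 and Erg at 0 in OHT replicate 3. The mural and fibroblast sum was 128 to 273 ppm in sham and 9.76 to 57.7 ppm in OHT, with 8 of the 9 genes tested below 0 and 1, Cspg4, above. Tagln was at 0 in all OHT libraries but at no more than 0.0703 ppm in sham, so its zeros show no difference. The 10 Müller glia markers were also all below 0, with sums of 3218 to 8149 ppm in sham and 1708 to 3787 ppm in OHT. Astrocyte markers spanned 13.6 to 1314 ppm in sham and 20.2 to 104 ppm in OHT, and rod markers 2866 to 27042 and 999 to 3565 ppm. Of the microglia and macrophage markers 9 of 12 were above 0, with sums of 34848 to 53241 ppm in sham and 47096 to 62867 ppm in OHT. The part of these markers in the caveola gene differences was not tested.

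The proportion of Cav1 to the Müller glia markers varied less over the sorted libraries than Cav1 itself. The markers summed to 3390, 8149 and 3218 ppm in sham and 1725, 1708 and 3787 ppm in OHT. Cav1 was at 86.8, 192 and 93.1 ppm in sham and 60.8, 46.9 and 118 ppm in OHT. Expressed against the marker sum, Cav1 was 2.56%, 2.35% and 2.89% in sham and 3.52%, 2.75% and 3.12% in OHT. The OHT proportions leaned higher, with a median of 3.12% against 2.56% in sham, but the groups overlapped. Cav1 itself ranged 4.09-fold over the 6 libraries and the marker sum 4.77-fold, but the proportion ranged only 1.50-fold. Against the endothelial sum the proportion of Cav1 ranged 1.98-fold, and against the mural and fibroblast sum 14.1-fold. Each of these sums, that of Müller glia included, rests on few genes. In sham, Glul (mean 1317 ppm), Rlbp1 (1192 ppm) and Dkk3 (1107 ppm) led the Müller glia sum. Kdr (mean 167 ppm) and Flt1 (88.0 ppm) led the endothelial sum there, and Rgs5 (172 ppm) the mural and fibroblast sum. Other endothelial markers varied more, with Pecam1 at 1.87 to 18.8 ppm and Cdh5 at 0.180 to 5.58 ppm in sham. The proportion is not corrected for length, so only its change between libraries can be read. Both quantities share the library total, and the proportion was examined after these values had been seen.

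The median of 11532 genes with a mean of at least 100 normalised counts ranged 6.74-fold against the same sum. With the range of Cav1 itself as the limit, the genes at or below it were Cav1 by construction, Rlbp1, Aqp4 and Abca8a, which are part of the sum, and 5 others: Flt1, Synpr, Bcat1, Paxip1 and Trpm3. A range this narrow was thus not limited to genes of the Müller glia list. Flt1 is on the endothelial list, but which cells of the mixed fraction gave its reads was not tested. Among the caveola genes the proportion ranged 2.86-fold for Cav2, 3.92-fold for Pacsin2, 11.4-fold for both Cavin1 and Cavin2 and 18.2-fold for Ehd2. Cavin3, at 0 in OHT replicate 3, ran from 0% to 0.476% of the sum and has no finite range. In the cultures Cav1 was 953%, 414% and 277% of the Müller glia sum, so the proportion of sorted cells did not hold there.

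**Figure D3:**
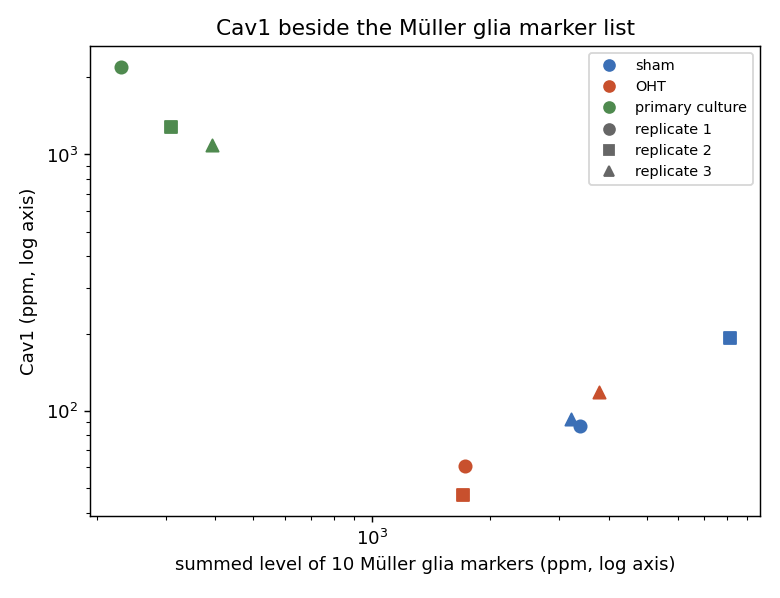
Cav1 (ppm, log axis) against the summed level of 10 Müller glia markers (ppm, log axis) in all 9 libraries, with colour showing the group and symbol the replicate. The 6 sorted libraries lie within a band of proportions from 2.35% to 3.52%, and the 3 cultures lie far above it at a low marker sum.

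The genes whose pattern over the 6 sorted libraries was most like that of Cav1, among 11525 genes, were Gldc (Pearson's r = 0.996), Cyp2d22 (0.992), Synpr (0.991), Tnpo1 (0.989) and Dcun1d4 (0.988). Gldc, the glycine-cleaving enzyme of the glycine cleavage system, was at 387, 1344 and 471 normalised counts in sham and 473, 195 and 531 in OHT, with the same order of libraries as Cav1. Each of these genes was highest in sham replicate 2 and lowest in OHT replicate 2, as Cav1 was, so the likeness rested largely on those libraries. In the cultures, where Cav1 was high, Gldc was at only 3.91 to 4.44 ppm, Cyp2d22 at 1.44 to 2.44 ppm and Synpr at 1.40 to 3.48 ppm. The other 2 were not low there, with Tnpo1 at 122 to 144 ppm and Dcun1d4 at 61.7 to 68.6 ppm. For Cavin1 they were Phlpp2 (0.988), Sebox (0.988), Hsd17b7 (0.977), Katnal1 (0.974) and Upk3bl (0.973). Phlpp2, a phosphatase of the kinase AKT, was at 230, 261 and 352 normalised counts in sham and 1238, 67.5 and 349 in OHT, so the likeness to Cavin1 rested largely on OHT replicates 1 and 2. No gene was on both lists, and n was 6 libraries throughout.

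Primary cultures held far more transcript of 4 caveola genes than any sorted library. Cavin1 was at 910, 1463 and 1592 ppm in the cultures, against 9.31, 7.69 and 9.78 ppm in sham and 18.5, 2.97 and 13.3 ppm in OHT. Ehd2 was at 963, 926 and 802 ppm, against 13.5, 7.53 and 9.35 ppm in sham and 0.399, 7.20 and 1.97 ppm in OHT. These were the widest gaps of the 7 genes, with culture means 129 and 135 times the mean of the 6 sorted libraries. Cav1, at 2189, 1278 and 1086 ppm in the cultures, was 15.2 times its sorted mean of 99.6 ppm. Cavin2, at 168, 177 and 140 ppm, was 33.5 times its sorted mean of 4.83 ppm.

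The other 3 genes overlapped between cultures and sorted cells. Cav2 was at 69.3, 39.4 and 35.6 ppm in the cultures, within its sorted range of 29.3 to 119 ppm. Pacsin2 was at 94.2, 136 and 146 ppm, within 50.9 to 171 ppm. Cavin3 was at 12.1, 14.8 and 14.8 ppm, within 0 to 16.3 ppm. No test was made across the tables. Over the 14004 genes compared, all cultures lay above all sorted libraries for 33.4% and below for 18.2%, and the 7 caveola genes counted 4 and 0. The position of each of the 7 was alike under 3 scalings: the library total, that total without the 20 highest genes, and the median over the 12300 genes detected in every library. A culture mean over 5 times the sorted mean was found for 10.8% of all genes and for the 4 genes Cav1, Cavin1, Cavin2 and Ehd2.

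**Figure D4:**
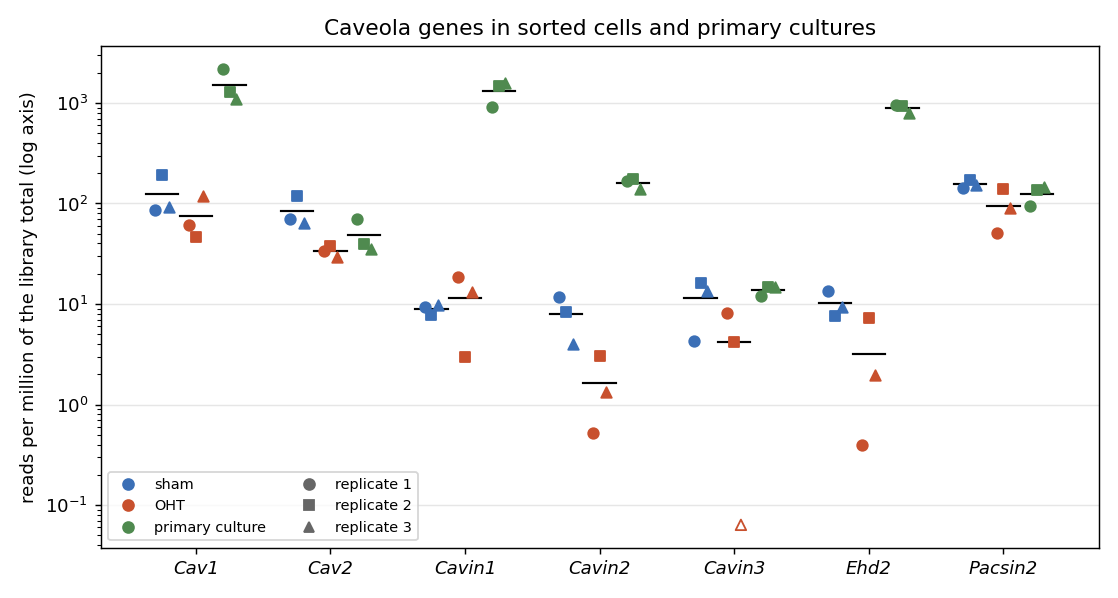
Level of each caveola gene in ppm of the library total (log axis) in sham, OHT and primary culture libraries, with the symbol showing the replicate, a bar at the group mean and an open symbol at the 3-read limit. Cav1, Cavin1, Cavin2 and Ehd2 stand far above the sorted libraries in culture, and Cav2, Cavin3 and Pacsin2 do not.

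Ranks by reads, not corrected for length, show the shift of each gene's own place. Among the 15438 genes listed in both tables, Cav1 ranked 33, 72 and 100 in the cultures and 599 to 3041 in sorted cells. Cavin1 ranked 131, 57 and 49 in the cultures and 5318 to 10401 in sorted cells, and Ehd2 124, 123 and 154 against 7347 to 11483. The cultures' markers ran beside this: their mural and fibroblast sum was 15044 to 17792 ppm with Kcnj8 at 0 in replicate 1 and Abcc9 at 0 in replicate 2, their endothelial sum 115 to 154 ppm with Cldn5 not listed and Tie1 and Erg at 0 in replicate 1, and their microglia and macrophage sum 105 to 164 ppm. Emcn alone gave 60.5 to 83.9 ppm of that endothelial sum, while Pecam1 was at 0.317 to 0.529 ppm and Cdh5 at no more than 0.166 ppm. How far the change of cell makeup, growth in serum or the pups' age entered these levels cannot be told apart in this design.

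Levels of different genes were set against each other within a library, per kb of the longest protein-coding transcript in GENCODE M21, which leaves out the scaling of the library. Per kb, Cav1 stood at 1.24, 1.61 and 1.45 times the level of Cav2 in sham, at 1.78, 1.24 and 4.02 times in OHT, and at 31.4, 32.3 and 30.4 times in culture. OHT replicate 3 was the sorted library in which the pair was most uneven, and the cultures were close to each other. Cav1 to Cavin1 per kb was 11.9, 31.7 and 12.1 in sham and 4.18, 20.1 and 11.3 in OHT, but 3.06, 1.11 and 0.867 in culture. All cultures lay below all sorted libraries in this ratio, and in primary culture replicate 3 the level of Cavin1 passed that of Cav1. Ehd2 to Pacsin2 per kb ran from 0.0318 to 0.0679 in sham, 0.00565 to 0.0371 in OHT and 3.96 to 7.38 in culture, so the pair changed places.

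On the same scale, each gene was expressed as a share of the summed level per kb of the 7. In sham, Cav1 held 33.1% ± 5.78, Pacsin2 32.9% ± 5.77 and Cav2 23.0% ± 2.01 (SD, n = 3). With these lengths Cav1 and Pacsin2 did not differ beyond their spread, and Cav2 was the third in every sham library. The tie depends on the length assigned. By median transcript length Cav1 goes from 2746 to 613 bases and Pacsin2 from 3693 to 2795, which raises Cav1 against Pacsin2. The remaining 4 were low: Cavin3 at 5.08% ± 2.48, Cavin2 at 2.10% ± 1.30, Cavin1 at 2.08% ± 0.712 and Ehd2 at 1.64% ± 0.809, and these were not separable from their neighbours. In OHT the order began alike, with Cav1 at 37.5% ± 14.5, Pacsin2 at 34.6% ± 14.4 and Cav2 at 17.5% ± 4.17, and the shares of the first pair overlapped. Cavin1 was at 4.91% ± 3.94 in OHT, Cavin3 at 3.93% ± 4.22, Ehd2 at 0.828% ± 0.932 and Cavin2 at 0.713% ± 0.544.

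The cultures had another makeup. Cav1 held 44.5% ± 12.4, Cavin1 31.8% ± 11.3 and Ehd2 14.4% ± 0.784 of the summed level per kb. Cavin1 exceeded Cav1 in primary culture replicate 3, at 40.9% against 35.5%, so the order of these 2 was not fixed. Cavin2 was at 4.35% ± 0.483, Pacsin2 at 2.85% ± 0.869, Cav2 at 1.42% ± 0.390 and Cavin3 at 0.696% ± 0.141. Together Cav1, Cavin1 and Ehd2 made up 90.0% to 91.7% of the level per kb in the cultures and 26.0% to 57.0% in sorted libraries. These shares depend on the length assigned: with the median transcript length, 613 bases in place of 2746 for Cav1, the median log2 ratio of Cav1 to Cavin1 per kb moved from 0.15 to 2.31 in culture and from 3.58 to 5.75 in sorted cells. The length cancels between libraries, so the lower Cav1 to Cavin1 ratio of the cultures was the same step with both.

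**Figure D5:**
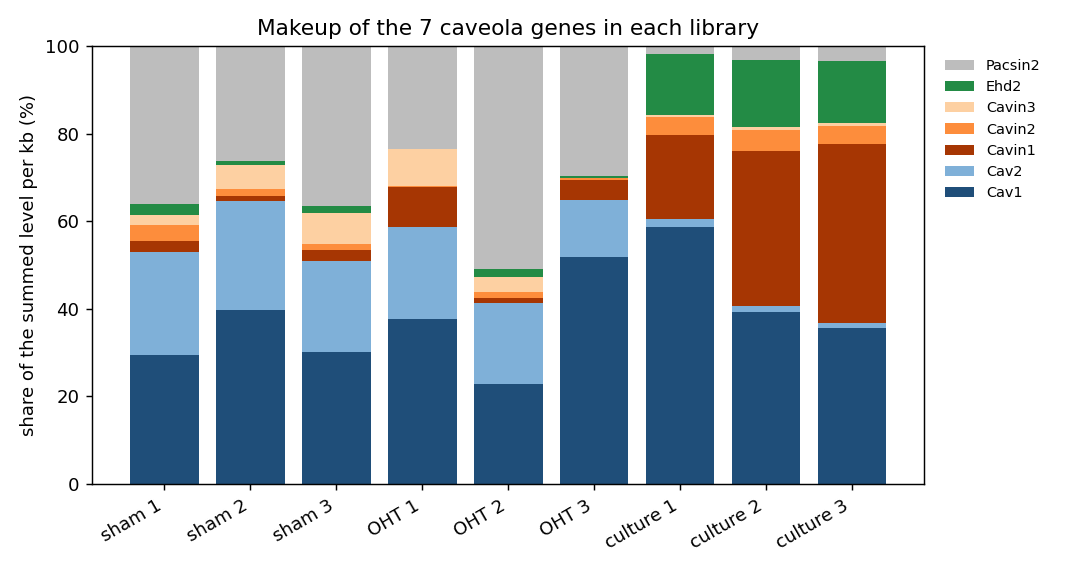
Share of each caveola gene in the summed level per kb of the 7 genes (%), for each of the 9 libraries. Pacsin2, Cav1 and Cav2 fill most of each sorted bar, and Cav1, Cavin1 and Ehd2 fill 90.0% to 91.7% of the culture bars.

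A wider list of 27 caveola-related genes was read beside the 7: relatives, membrane partners, kinases and cytoskeletal links, and the channels Trpv4 and Piezo1. Of these, 25 were tested between sham and OHT, while the muscle isoforms Cav3 and Cavin4 are not listed in the sorted table and reached at most 0.886 ppm in culture. None passed the adjusted threshold. In the fit 15 were below 0 and 10 above, with a median of -0.13 against -0.12 over all genes. At an unadjusted p under 0.05, 5 were lower and 1 was higher, against 6.30% and 5.37% of all genes.

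The kinase Yes1, a relative of Src, was at 467, 814 and 494 normalised counts in sham and 58.0, 236 and 33.7 in OHT, without overlap (-2.87, SE 0.84; limma unadjusted p = 0.00536, adjusted p = 0.332). Pacsin3, the relative of Pacsin2 that is known to bind TRPV4, was at 690, 1302 and 1290 in sham and 84.3, 378 and 522 in OHT, also without overlap (-2.03, SE 0.71; limma adjusted p = 0.343). Plvap, which forms the diaphragms of endothelial caveolae, was at 49.6, 202 and 65.1 in sham and 8.29, 16.5 and 9.62 in OHT (-2.87, SE 1.18; limma adjusted p = 0.390). The OHT values of Plvap rested on only 6, 20 and 12 reads. Yes1, Pacsin3 and Plvap were all lower in each OHT library than in any sham library, 3 of 25 genes beside 9.18% of all genes tested. Egfr, the receptor for epidermal growth factor, had a difference of -2.78 (SE 1.24, limma adjusted p = 0.421), on 7, 23 and 364 reads in OHT. Flot2, a raft scaffold protein, had one of -1.57 (SE 0.71, limma adjusted p = 0.427). Both Egfr and Flot2 overlapped between the groups. Fnbp1, an F-BAR protein, was at 2640, 1937 and 2430 in sham and 7090, 2820 and 4298 in OHT (0.93, SE 0.40; limma adjusted p = 0.407). Flot1, the partner of Flot2, was at 3910, 3613 and 3438 in sham and 6331, 4325 and 4658 in OHT (0.46, SE 0.32; limma adjusted p = 0.560). Fnbp1 and Flot1 did not overlap as normalised counts, which 9.26% of all genes showed in that direction, but overlapped in ppm.

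Trpv4 was at 564, 261 and 471 normalised counts in sham and 1398, 470 and 340 in OHT. Its difference of 0.56 (SE 0.65; limma adjusted p = 0.717) was -0.04 without OHT replicate 1, which was the highest library for Cavin1 as well. In ppm Trpv4 was at 6.64 to 21.3 in sorted cells and 8.14 to 11.0 in the cultures, so it did not share the high culture level of Cav1 and Cavin1.

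In culture the wider list split. All cultures lay above all sorted libraries for 12 of 25 genes and below for 5, beside 33.4% and 18.2% of all genes, and 8 overlapped. The actin crosslinker Flna, which links caveolae to stress fibres, was at 1865 to 2751 ppm in culture, 43.2 times its sorted mean. The stretch-gated channel Piezo1 was at 92.8 to 107 ppm, 19.3 times its sorted mean. Ehd1 and Ehd3 were 3.73 and 5.38 times as high, and Dnm2, the dynamin of membrane scission, 3.36 times. With the 20 highest genes left out of the total, Dnm2 overlapped and Nos3, the endothelial nitric oxide synthase, lay below, while 23 of the 25 kept their position under all 3 scalings. On the other side, Ehd4, another EHD ATPase, was 10.3 times as high in sorted cells, Pacsin1, the neuronal pacsin, 96.6 times, and the fatty acid receptor Cd36 137 times. The EHD and pacsin families were each divided, with Ehd1, Ehd2, Ehd3 and Pacsin3 higher in culture, Ehd4 and Pacsin1 higher in sorted cells, and Pacsin2 overlapping.

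Several of these genes overlap others in GENCODE M21. The antisense gene Gm15581 runs across Cav1 and Cav2, 9330175M20Rik is antisense to Cavin2, Gm45667 lies opposite Cavin3 and the processed pseudogene Gm5417 lies within Pacsin2. None of the 4 is listed in either table. The sources used here do not say whether the authors counted by strand, so reads of these partners cannot be told apart from those of the caveola genes.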

How the data were processed

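RNA sequencing was analysed in 6 sorted libraries (3 sham, 3 OHT) and 3 primary cultures, grouped by the labels. Per the labels' protocols, RNA of low input was amplified as SMARTer v4 cDNA, made into KAPA HyperPrep libraries and read as paired ends of 150 bp. The submitters' processing notes name bcl2fastq 2.20, Trim Galore 0.6.6, FastQC 0.11.9, STAR 2.7.1a and mm39. The sources used here do not give the counting program, annotation, gene filter or normalization tool.

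The authors deposited 1 signal value per gene and library, a gene count divided by 1 factor per library, in tables normalised separately for sorted cells and cultures. Divided by its smallest step, a column returned whole numbers of reads in 100% of values (tolerance 0.05 reads). This held for primary culture replicate 3 as well, whose step of 1.0073 was the closest to 1. Replicates of a group all differed beyond sampling noise (chi-square of 51.2 to 818 per gene). Amplified reads are not independent molecules, so limits cover counting error only.

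OHT was compared with sham by limma 3.58.1 (R 4.3.3, lmFit, eBayes with trend) on log2(value + 1). The added 1 shrinks changes of low genes, but differences on this scale were not always smaller than with count models. Ehd2 was at -2.19 on it, -1.58 with edgeR and -1.54 with DESeq2, whereas Cavin1 was at 0.27, 0.67 and 0.77. The fit ran over 14403 genes with a mean of at least 10. All 7 genes passed this filter. Benjamini-Hochberg adjustment ran over all genes with a threshold of 0.05, with no covariate. edgeR 4.0.16 (quasi-likelihood) and DESeq2 1.42.0 were run on the recovered reads. Other alternatives were pseudocounts of 0.5 and 10, no filter or a mean of at least 100, TMM and quantile scaling, a replicate block, array weights, eBayes without trend, each library left out, other library totals and median transcript lengths. Groups "do not overlap" where every library of one lies below every library of the other.

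The 7 genes, the wider list, the marker lists and the tests were chosen with earlier results of these data known. Named besides the 7 were Trpv4, wider-list genes at an unadjusted p under 0.05 or without overlap, the 5 genes most alike to Cav1 and to Cavin1 by Pearson's r with a mean of at least 100, and marker genes. The proportion of each gene to the marker sums, the genes close to Cav1 in it, and the Flna, Piezo1, Ehd, Pacsin, Dnm2, Nos3 and Cd36 culture levels were named after their values were seen. Sequences and names come from RefSeq (GRCm38.p6) and lengths from GENCODE M21, since no reference of the authors' build was used. Values were tabulated with pandas 2.3.3 and drawn with matplotlib 3.10.9 in Python 3.11.15.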

Additional observations from a re-analysis of the deposited data

How the results depend on the processing

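Of the OHT differences, Cav1, Cav2, Cavin2, Cavin3, Ehd2 and Pacsin2 stayed below 0 in all 17 alternatives (Cavin3 between -4.86 and -0.32), and no caveola gene passed the adjusted threshold in any. The lowest adjusted p was 0.158, for Cavin2 with DESeq2. Cavin1 was -0.32 with array weights and ranged from -0.48 to 1.12 with 1 library left out, and Trpv4 from -0.04 to 0.98. The 3 caveola genes lower at an unadjusted p under 0.05 became 1 with eBayes without trend and 0 to 4 with 1 library left out. Genes called over the whole table numbered 0 with limma, 250 with DESeq2, 2 with the replicate block and 0 to 17 with 1 library left out (12 without sham replicate 1, 17 without sham replicate 3), and those at an unadjusted p under 0.05 ranged from 544 (without sham replicate 2) to 2508 (without OHT replicate 2), with 1055 without sham replicate 3. The labels do not say that replicate numbers pair the libraries. Deviations of same-numbered libraries had r of 0.08, -0.02 and -0.05, which with 3 libraries per group cannot exclude a shared day or litter. The replicate block changed no caveola gene's call. Quantile scaling moved the median of all genes from -0.12 to 0.01. The culture log2 ratio of Cav2, -0.29, ranged from -0.65 to 0.04 with 1 library left out (0.04 without sham replicate 2). That of Pacsin2, 0.01, was -0.34 without the 20 highest genes, -0.23 with median scaling and -0.15 to 0.18 with 1 library left out, so neither has a firm direction. With median transcript lengths the log2 ratio of Cav1 to Cavin1 per kb was 5.75 in sorted cells and 2.31 in culture, and that of Cav1 to Cav2 1.29 and 5.65, from 0.61 and 4.97. Which step of each alternative moved a value was not tested. With 1 sample fewer in a group, the spread was pooled over both groups.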
